A study of Mus musculus with 18 samples.

Results

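Mice given flour of conventional potatoes under storage conditions (PCS) were compared with mice given water (Ctr), on the 6 arrays of these groups among the 18 arrays of the series. The arrays were chosen by their labels, with 3 mice in each group. Gene expression was measured in enterocytes scraped from the jejunum, the stretch of small intestine after the duodenum. The mice were male BALB/cOlaHsd animals, 8 weeks old at the start. PCS mice received 30 mg of flour per day by gavage for 20 days, and Ctr mice received an equivalent gavage of water. Both groups ate standard chow with water at will, and each group of 12 mice gave 3 for arrays, 1 array per mouse. The other groups used below received flour of conventional potatoes (PC) or of organic potatoes under storage conditions (POS), also 3 mice each. The 18 arrays also hold a group labelled acceptable daily intake (ADI) and a group given flour of organic potatoes (PO), 3 mice each. These enter the tests only through the spread pooled over all arrays. The label of POS mouse 3 places it at day 27, after a week without gavage, so that POS is not matched in time for that mouse. The labels do not say how the potatoes were stored.

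Enterocytes are the absorptive cells of the small intestine. They take up sugars, amino acids and fats, pack dietary lipid with apolipoproteins, and lie beside intraepithelial T cells, so that scraped mucosa can carry RNA of immune cells. The genes below belong to cell signalling, immune defence, replication and ribosome assembly, gene regulation and lipid handling.

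Of 6914 array features, 5021 had a value on every array, and 43 of these carry a gene name. The authors' deposited table lists 22 genes in PCS mice, 20 of them among the 43, and the authors chose these genes on these samples, so their direction is not independent evidence. Of 12 enterocyte markers looked for, only Apoa1 is named here, and of 7 T cell markers only Cd2, so the labelled cell type could be checked on 1 gene. Apoa1, an apolipoprotein that enterocytes secrete with lipid, had intensities of 4683, 12383 and 31826 in PCS mice 1, 2 and 3, against 13296, 16287 and 17841 in Ctr mice 1, 2 and 3. With each array centred on its median log2 intensity, the log2 ratios of Apoa1 to the Ctr mean were -0.59, -0.02 and -0.33 in these PCS mice. The groups overlapped as deposited and centred. In scraped tissue, fewer cells of a type and less RNA per cell cannot be told apart. No marker of goblet, Paneth, enteroendocrine, tuft, B, myeloid, stromal or enteric nerve cells is named, so the share of those cells was not tested.

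The PCS arrays differed widely in brightness. Their median intensity over the 5021 features was 89, 159 and 507 in PCS mice 1, 2 and 3, against 168, 184 and 256 in Ctr mice. The share of features under an intensity of 16 was 6.57%, 2.67% and 1.23% on the PCS arrays and 3.70%, 2.59% and 1.10% on the Ctr arrays. PCS mouse 1 was thus dimmer and PCS mouse 3 brighter than every Ctr mouse. Differences are given both as deposited and with each array centred on its median log2 intensity.

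**Figure D1:**
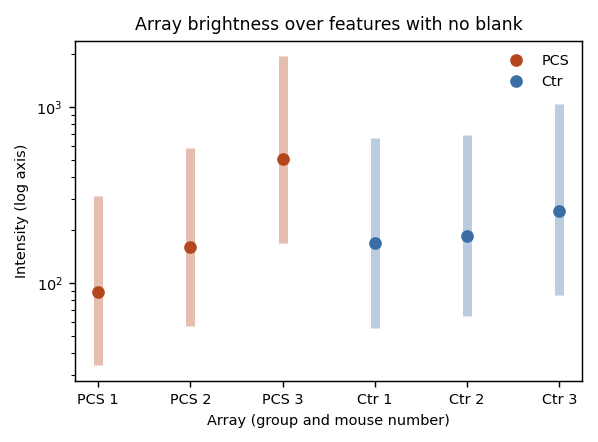
Intensity on a log axis for the 3 PCS arrays and the 3 Ctr arrays over the 5021 features with no blank; points are medians and bars run between the lower and upper quartile. The PCS medians of 89, 159 and 507 lie on both sides of the Ctr medians of 168, 184 and 256.

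PCS array 3 also stood apart in its profile across features. Its Spearman correlation was 0.75 with PCS array 1 and 0.80 with PCS array 2, while these arrays had 0.93 with each other. With the Ctr arrays 1, 2 and 3, PCS array 3 had correlations of 0.97, 0.93 and 0.96, in the range of 0.95 to 0.97 that the Ctr arrays had among themselves or just under it. PCS array 1 had 0.79 to 0.83 with the Ctr arrays, and PCS array 2 had 0.82 to 0.86. By rank order PCS array 3 lay nearer to the water mice than to the mice of its own label, and results are therefore given with and without it. Its intensities also departed from the authors' deposited folds for PCS mouse 3, as given below. Whether that column holds the mouse it names is not settled by the files, so PCS mouse 3 stands here for the array so labelled, and every mean over the PCS mice includes it. All 1893 features left out for a blank have it in the column of PCS array 3. In those features the median log2 ratio to the Ctr mean was -0.79 in the column of PCS mouse 1 and 1.32 in that of PCS mouse 2, where the features used had -1.44, -0.54 and 1.27 in the columns of PCS mice 1, 2 and 3. The columns of those features may therefore not hold the mice they name, and they were not used.

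In limma, which pools the spread over all 18 arrays, 0 of 5021 features differed between PCS and Ctr mice at an adjusted p under 0.05 (0.0% called). At an unadjusted p under 0.05 there were 50 features, or 0.996%, and all 50 were higher in PCS mice. With centred arrays limma also called 0.0% of features, and 231 had an unadjusted p under 0.05 (4.6%), of which 84 were higher and 147 lower. These fits include PO array 2, which had a median intensity of 5 and 84.2% of features under 16. Its Spearman coefficients against the rest had a median of 0.365. Leaving it out still gave 0 calls as deposited and centred. At an unadjusted p under 0.05 there were then 164 features as deposited, 161 higher and 3 lower. Centred, there were 629, of which 151 were higher and 478 lower. With all arrays as deposited the median feature differed by -0.16 (log2, PCS minus Ctr), beside an SD of 1.28 between the PCS array medians. It stood at -0.92 without PCS array 3 and at 0.41 without PCS array 1.

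The PCS mice differed from each other in the named genes. Of the 20 genes that the authors list, 13 lay above 2 times the Ctr mean in PCS mice 1 and 2 and not in PCS mouse 3. They are Slc10a1, Orc5, Cd2, Aebp2, Tmem145, Acvr1b, Card14, U2af2, Noc4l, Cadm2, Csf2, Rasgef1a and Uhrf1bp1. Among all features 4.68% showed that pattern, and 0.936% lay above 2 times the Ctr mean in all 3 PCS mice. None of the 20 listed genes was above it in all 3 mice as deposited. The same 13 genes were also above every single Ctr mouse in PCS mice 1 and 2, beside 7.65% of all features. With centred arrays 15 of the 20 had the pattern of mice 1 and 2 (8.54% of all features), and Plcb4 alone passed in all 3 mice (0.259%).

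**Figure D2:**
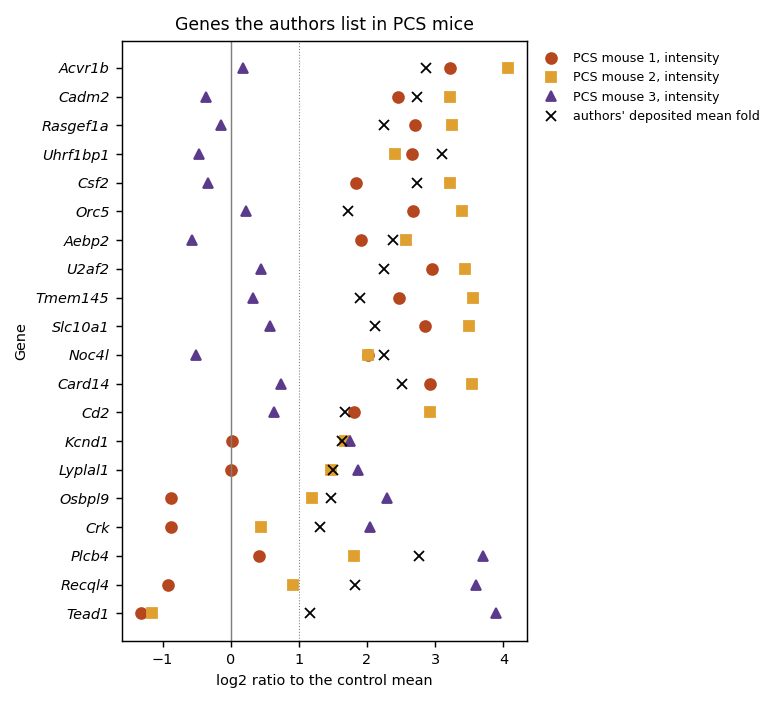
The log2 ratio of intensity to the mean of the 3 Ctr mice, as deposited, for the 20 listed genes in PCS mice 1 (circle), 2 (square) and 3 (triangle), with the mean fold of the authors' deposited table as a cross; the dotted line marks 2-fold. For the upper 13 genes circles and squares lie beyond 2-fold and triangles do not, while the triangles of Plcb4, Recql4 and Tead1 lie farthest to the right.

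Among the signalling genes, 5 of 5 had a difference above 0, with a median of 2.37 (log2, PCS minus Ctr, as deposited), where 39.2% of all features were above 0 and the median feature was -0.16. All but Prkar1a are genes that the authors list in PCS mice, so this direction is not independent evidence. None of the 5 passed the limma test. Acvr1b (feature 21618), the activin type I receptor ALK4, had intensities of 1016, 1830 and 124 in PCS mice 1, 2 and 3, against 56, 67 and 204 in Ctr mice 1, 2 and 3. PCS mice 1 and 2 were above all Ctr mice, and PCS mouse 3 was below Ctr mouse 3. The difference was 2.74 (log2, SE 1.28, limma adjusted p 1.00). Rasgef1a (feature 39566), an exchange factor that loads Ras proteins with GTP, had intensities of 2384, 3492 and 333 in PCS mice against 217, 244 and 643 in Ctr mice. It followed the same order, with PCS mouse 3 inside the range of the Ctr mice, and a difference of 2.12 (SE 1.25, limma adjusted p 1.00).

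Plcb4 (feature 7153), which encodes a phospholipase C that splits membrane phosphoinositides into second messengers, ran the other way among the mice. It had intensities of 4053, 10710 and 39495 in PCS mice 1, 2 and 3, against 630, 40 and 8485 in Ctr mice 1, 2 and 3. PCS mouse 3 was highest, and PCS mouse 1 lay below Ctr mouse 3, so the groups overlapped as deposited. With centred arrays they did not overlap, as in 4.32% of all features on the higher side. The difference was 4.32 (log2, SE 1.62) as deposited and 4.37 (SE 1.30) centred, with limma adjusted p 1.00 and 0.87. As deposited it was 2.37 without Ctr array 2 and 6.24 without Ctr array 3, and centred it was 2.48 and 6.10 without these arrays. In a fit of the 6 PCS and Ctr arrays alone, Plcb4 was the 1 feature that limma called (adjusted p 0.040, 0.0199% of features called). With those 6 arrays centred, limma called 0 features, with 491 at an unadjusted p under 0.05, and Plcb4 had an adjusted p of 0.49 and an SE of 1.68. The fit of the 6 arrays as deposited gave every named gene the same SE of 0.97, although the SD of Plcb4 was 1.65 in PCS mice and 3.86 in Ctr mice (log2, n = 3 each).

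Tead1 (feature 28796), a transcription factor of the Hippo pathway, had intensities of 548, 615 and 20318 in PCS mice against 379, 35 and 3701 in Ctr mice. Its difference of 2.37 (log2, SE 1.75) was 0.66 without PCS array 3, 0.68 without Ctr array 2 and 4.04 without Ctr array 3. Prkar1a (feature 33938), a regulatory subunit of protein kinase A that the authors do not list in PCS mice, had 1946, 1205 and 16595 in PCS mice against 2457, 1436 and 6628 in Ctr mice. Only PCS mouse 3 exceeded the Ctr mice, and the difference was 0.24, or -0.90 without that array.

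**Figure D3:**
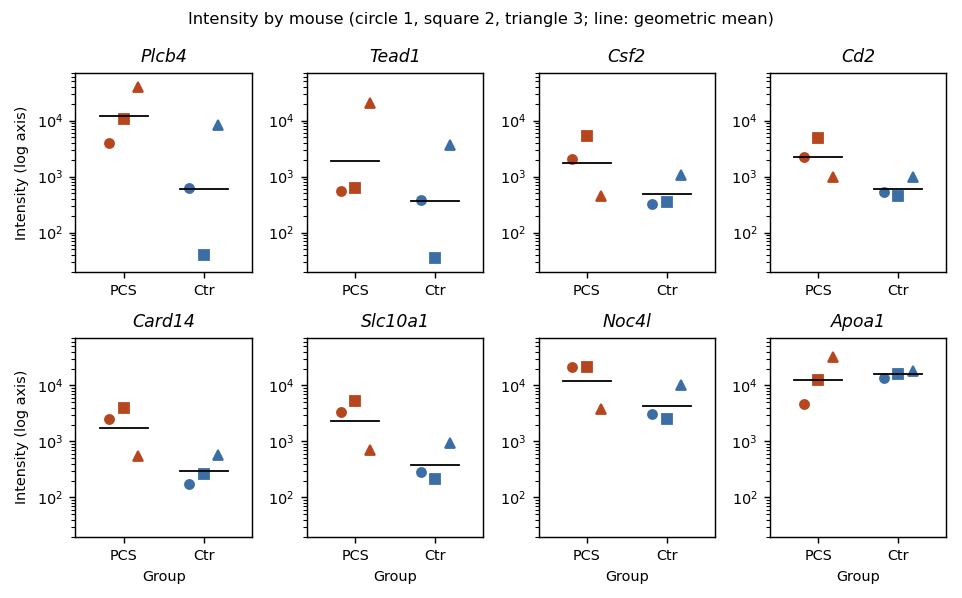
Intensity on a log axis for 8 genes in PCS mice (left of each panel) and Ctr mice (right); circle, square and triangle are mice 1, 2 and 3 of the group and lines are geometric means. In Csf2, Cd2, Card14, Slc10a1 and Noc4l the PCS triangle lies below the PCS circle and square, and in Plcb4, Tead1 and Apoa1 it lies above them.

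Of the 4 immune genes with a value on every array, 3 had a difference above 0, with a median of 1.84 (log2) over the 4. Of all features 39.2% were above 0. The 3 are Card14, Csf2 and Cd2, which the authors list in PCS mice, so their direction is not independent evidence. Card14 (feature 24326), a scaffold that activates NF-kB, had intensities of 2537, 3876 and 554 in PCS mice 1, 2 and 3, against 171, 266 and 564 in Ctr mice 1, 2 and 3. PCS mice 1 and 2 exceeded every Ctr mouse, and PCS mouse 3 was level with Ctr mouse 3. The difference was 2.58 (SE 1.23, limma adjusted p 1.00). Csf2 (feature 38320), the gene of the growth factor GM-CSF, had 2062, 5350 and 457 in PCS mice against 320, 353 and 1056 in Ctr mice. Its difference of 1.80 (SE 1.22) again came from PCS mice 1 and 2.

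Cd2 (feature 8561), an adhesion molecule of T cells and natural killer cells, was the 1 named gene whose groups did not overlap as deposited, which 3.17% of all features showed on the higher side. It had intensities of 2263, 4937 and 1002 in PCS mice against 530, 445 and 970 in Ctr mice, with PCS mouse 3 just above Ctr mouse 3. The difference was 1.87 (log2, SE 1.21, limma adjusted p 1.00), and with centred arrays the groups overlapped. As the only T cell marker named, Cd2 cannot be set against others, and the part of immune cells was not tested. H2-K2, a class I histocompatibility gene, was at 1706, 2671 and 9001 in PCS mice against 4600, 5988 and 10045 in Ctr mice, a difference of -0.92.

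Both genes of replication and ribosome assembly with values on every array were higher in the mean, as were 39.2% of all features. The authors list both in PCS mice, so their direction is not independent evidence. Orc5 (feature 6130), a subunit of the complex that marks replication origins, had intensities of 3675, 6035 and 669 in PCS mice against 329, 307 and 1091 in Ctr mice. Noc4l (feature 33200), a nucleolar protein of small ribosomal subunit assembly, had 21286, 21262 and 3726 in PCS mice against 3122, 2557 and 10187 in Ctr mice. For both, PCS mice 1 and 2 exceeded every Ctr mouse and PCS mouse 3 was inside the Ctr range. Their differences were 2.36 (log2, SE 1.26) for Orc5 and 1.46 (SE 1.17) for Noc4l, each at limma adjusted p 1.00. Recql4 (feature 6696), a DNA helicase that the authors group with carcinogenesis, had 378, 1358 and 8723 in PCS mice against 1020, 390 and 746 in Ctr mice. Its difference of 1.31 (SE 2.06) was 0.10 without PCS array 3.

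Genes of chromatin, transcription and splicing split in direction, with 2 of 5 above 0 and a median of -0.61 (log2). Of all features 39.2% were above 0. U2af2 (feature 28652), which binds the pyrimidine tract before the 3′ splice site, had intensities of 2545, 3566 and 447 in PCS mice against 133, 239 and 618 in Ctr mice. Aebp2 (feature 10260), a partner of Polycomb repressive complex 2, had 13178, 20985 and 2378 in PCS mice against 2358, 1449 and 6758 in Ctr mice. Both are listed by the authors in PCS mice, and their differences of 2.56 and 1.61 came from PCS mice 1 and 2. Chd4 (feature 15041), the remodelling ATPase of the NuRD complex, was low in the same mice, at 28, 22 and 1409 in PCS mice against 402, 119 and 534 in Ctr mice. PCS mouse 3 exceeded all Ctr mice, and the difference was -1.63 (SE 1.62, limma adjusted p 1.00), or -3.57 without that array. The values of 28 and 22 are near the dim end of the arrays. Chd4 was also low in the other flour groups, at 46, 30 and 35 in PC mice and 86, 87 and 22 in POS mice. PCS minus PC was -0.11 (SE 1.13) with centred arrays.

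The genes of lipid, bile acid and acetyl transfer had a median difference of -0.59 (log2). Of them 1 of 4 was above 0, beside 39.2% of all features. That gene, Slc10a1 (feature 5199), which the authors list in PCS mice, encodes the sodium and taurocholate cotransporter known for bile acid uptake in liver. It had intensities of 3409, 5343 and 704 in PCS mice 1, 2 and 3, against 283, 217 and 918 in Ctr mice 1, 2 and 3. Over the Ctr mean the ratio was 7.21 in PCS mouse 1, 11.3 in PCS mouse 2 and 1.49 in PCS mouse 3, and the difference was 2.61 (SE 1.30, limma adjusted p 1.00). Acat3 (feature 21811), an acetyl-CoA acetyltransferase, had 2831, 4923 and 18393 in PCS mice against 11253, 15502 and 18972 in Ctr mice. PCS mouse 3 was close to Ctr mouse 3 and the others were below all Ctr mice, giving -1.23 (SE 1.85). With centred arrays Acat3 was below 0.5 times the Ctr mean in all 3 PCS mice, as were 0.578% of all features, and among the named genes only Nyap1 shared this.

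Osbpl9 (feature 18670), an oxysterol-binding protein relative, and Lyplal1 (feature 20762), a lysophospholipase-like enzyme, had another order among the mice. Osbpl9 had intensities of 378, 1598 and 3427 in PCS mice against 521, 290 and 1282 in Ctr mice. Lyplal1 had 951, 2630 and 3462 in PCS mice against 810, 822 and 1203 in Ctr mice. The potassium channel gene Kcnd1 (feature 1684) had 1031, 3250 and 3440 in PCS mice against 939, 909 and 1210 in Ctr mice. In all 3 genes PCS mice 2 and 3 exceeded every Ctr mouse and PCS mouse 1 did not. How many of all features had this order was not counted. As deposited these 3 genes and Plcb4 passed 2 times the Ctr mean in PCS mice 2 and 3 and not in PCS mouse 1. That pattern held in 1.89% of all features, and in PCS mouse 3 70.3% of all features passed. The differences were 1.14 for Osbpl9, 1.14 for Lyplal1 and 1.16 for Kcnd1 (log2), and with centred arrays Lyplal1 and Kcnd1 no longer overlapped between the groups. With centred arrays 4 of the 20 listed genes lay wholly above the Ctr mice, Crk and Plcb4 being the others, beside 4.32% of all features. The adaptor gene Crk (feature 26489), at 750, 1873 and 5695 in PCS mice against 1069, 1084 and 1993 in Ctr mice, differed by 0.60 and by -0.16 without PCS array 3.

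The adhesion gene Cadm2 (feature 35844) had intensities of 3137, 5295 and 443 in PCS mice against 294, 362 and 1055 in Ctr mice, a difference of 2.01 (log2). Tmem145 (feature 17561), a transmembrane protein gene, had 3245, 6889 and 741 in PCS mice against 263, 374 and 1129 in Ctr mice, a difference of 2.41. Uhrf1bp1 (feature 39935), a lipid transfer protein gene, had 1289, 1083 and 147 in PCS mice against 65, 427 and 118 in Ctr mice, a difference of 1.99. In each of these genes PCS mice 1 and 2 were above every Ctr mouse and PCS mouse 3 was within the Ctr range.

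The neuronal and junctional genes were lower in the mean, with 0 of 3 above 0 and a median of -0.73 (log2). Most features, 3051 of 5021, were likewise below 0. Nyap1 (feature 38308), a neuronal adaptor of phosphoinositide 3-kinase, had intensities of 2044, 4319 and 16237 in PCS mice against 9847, 14434 and 17283 in Ctr mice. Its difference was -1.37 (SE 1.82, limma adjusted p 1.00). Both genes of ubiquitin-like modification were below 0 as deposited, as were 3051 of 5021 features. Ufc1 (feature 29307), the conjugating enzyme of the modifier UFM1, had 498, 448 and 34726 in PCS mice against 3783, 1819 and 8321 in Ctr mice. The highest and the lowest values of Ufc1 were thus both in PCS mice, and its difference of -0.96 (SE 1.49) was 0.11 without PCS array 2 and -3.03 without PCS array 3. Ufm1, the modifier itself, was at 1545, 1276 and 38700 in PCS mice against 4578, 1802 and 11369 in Ctr mice, a difference of -0.099 (SE 1.35) that was 0.77 without PCS array 2 and -1.69 without PCS array 3.

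The 23 named genes that the authors do not list in PCS mice had a median difference of -0.84 (log2), with Prkar1a the 1 gene above 0. In PCS mouse 1, 22 of the 23 were below 0.5 times the Ctr mean, as were 66.7% of all features, and in PCS mouse 2 it was 19 of 23 beside 28.2%. In PCS mouse 3 it was 0 of 23 beside 1.33%, and 10 of the 23 were above 2 times the Ctr mean beside 70.3%. In PCS mice 1 and 2 together, 22 of the 23 were below every Ctr mouse, beside 53.0% of all features. With centred arrays fewer of the 23 genes were below 0.5 times the Ctr mean, 10 in PCS mouse 1 (16.9% of all features), 13 in PCS mouse 2 (802 of 5021 features) and 4 in PCS mouse 3 (9.82%), where 3 were above 2 times it (2.47%). Centred, 19 of the 23 were below every Ctr mouse in PCS mice 1 and 2 (36.1%), and 13 of the 23 in all 3 PCS mice (13.2%). The 13 include Thap1, Bmf, Acat3, Nyap1, Gdf1 and Pde4b. The low values as deposited moved with the brightness of the arrays, whose part in them was not tested. Of the 20 listed genes, 13 were above 2 times the Ctr mean on the dimmest PCS array, beside 6.55% of all features, and 7 on the brightest.

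**Figure D4:**
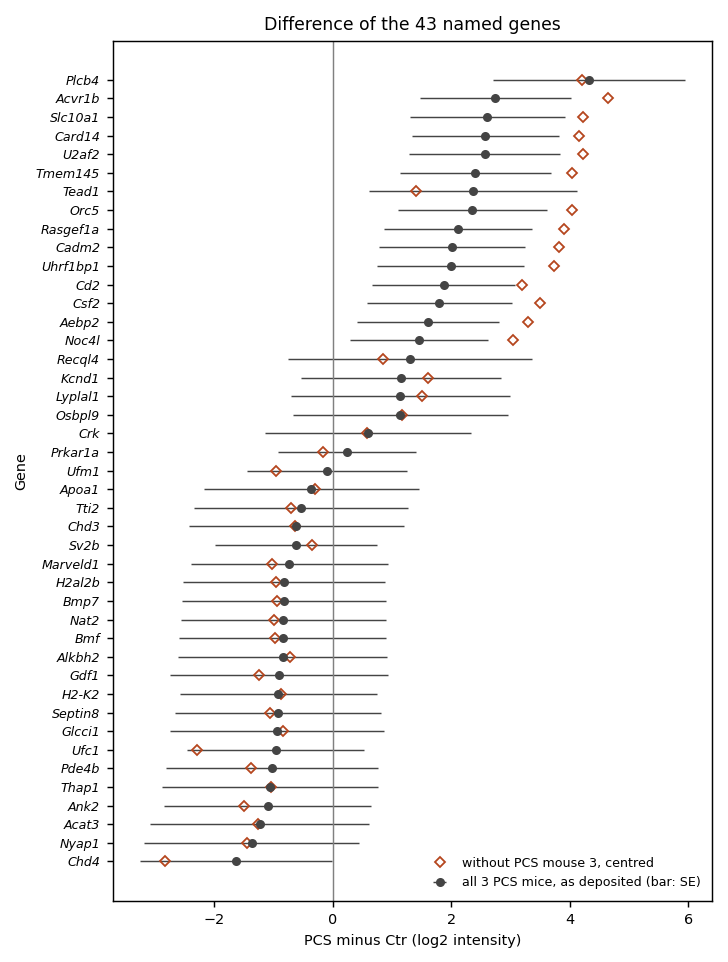
Difference in log2 intensity, PCS minus Ctr, for the 43 named genes, as deposited with all 3 PCS mice (dots, bars are SE) and with PCS mouse 3 left out and arrays centred (diamonds). Diamonds lie well to the right of the dots for genes such as Acvr1b (2.74 and 4.64) and Slc10a1 (2.61 and 4.22), and to the left for Chd4 (-1.63 and -2.82) and Ufc1.

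The same comparison was made without PCS array 3, a setting chosen after seeing the data, which leaves 2 PCS mice. Over the arrays of all groups, limma called 0 features as deposited and 1 with centred arrays (0.0199%), and 0 named genes in either. At an unadjusted p under 0.05 it was 195 features as deposited (3.88%) and 819 centred (16.3%). There Acvr1b differed by 4.64 (log2, SE 1.10), Slc10a1 by 4.22 (SE 1.03), Card14 by 4.15 (SE 0.93) and Cd2 by 3.19 (SE 0.77) with centred arrays, each at limma adjusted p 0.075. The count depended on which other arrays set the spread. Without the dim PO array 2, an array of the organic flour group, limma called 445 features in the centred fit, 141 higher and 304 lower (8.86%). The same fit as deposited called 0 features, with a smallest limma adjusted p of 0.081 and 481 features at an unadjusted p under 0.05 (9.58%). The 445 features held 15 named genes, of which the listed genes Acvr1b, Cadm2, Card14, Cd2, Kcnd1, Lyplal1, Orc5, Rasgef1a, Slc10a1, Tmem145, U2af2 and Uhrf1bp1 were higher, and Ank2, Gdf1 and Pde4b were lower. Ank2 encodes an ankyrin of the membrane skeleton, Gdf1 a growth factor of the TGF-beta family and Pde4b a phosphodiesterase that degrades cyclic AMP.

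With the PCS and Ctr arrays alone and PCS array 3 left out, limma called 1345 features as deposited, 272 higher and 1073 lower (26.8%), and 1112 with centred arrays, 462 higher and 650 lower (22.1%). As deposited, that fit gave each of the genes named by the rule the same SE of 0.61, whatever its own spread. The centred calls held 15 of the 20 listed genes, all higher, and 14 other named genes, all lower. In that fit Cd2 differed by 3.19 (SE 0.28) and Card14 by 4.15 (SE 0.36), both at limma adjusted p 0.0027, and Ank2 by -1.50 (SE 0.23) at 0.010. Plcb4, Recql4, Osbpl9, Crk and Tead1 were the listed genes not called there. Leaving out any other single PCS or Ctr array in these fits gave 0 to 5 calls. Nothing in the labels sets PCS mouse 3 apart, so these counts describe PCS mice 1 and 2 against water and not the group as labelled.

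Over all features, 47 were above 2 times the Ctr mean in every PCS mouse and 6 were below 0.5 times it (0.119%). Without PCS array 3 the count in both directions was 1586, against 53 with it, of which 282 were higher and 1304 lower. With centred arrays it was 42 features with all mice and 953 without PCS array 3, of which 442 were higher and 511 lower. PCS mice 1 and 2 thus shared many features past 2-fold that PCS mouse 3 did not.

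**Figure D5:**
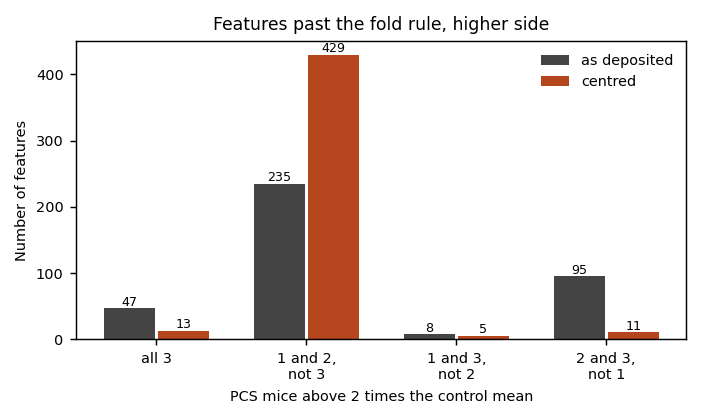
Number of the 5021 features above 2 times the Ctr mean, by which PCS mice pass, as deposited (dark) and with each array centred (red). The pattern of mice 1 and 2 without mouse 3 holds 235 features as deposited and 429 centred, the most of the 4 patterns shown in both scalings, against 47 and 13 features for all 3 mice.

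The fold changes in the authors' deposited table did not show this split between the mice. For its 22 PCS genes every fold was positive in every mouse, and the range between the 3 mice had a median of 0.26 (log2) and reached 1.18, in Cd2. Acvr1b stood in the authors' deposited table at log2 folds of 2.53, 3.38 and 2.68 in PCS mice 1, 2 and 3, where the log2 ratio of intensity to the Ctr mean was 3.22, 4.07 and 0.19. Tead1 stood in the authors' deposited table at log2 folds of 1.22, 1.28 and 0.98, where the log2 intensity ratios were -1.32, -1.16 and 3.89. Over the 20 listed genes the log2 intensity ratio lay within 0.5 of the authors' deposited fold in 6 genes for PCS mouse 1, 6 for PCS mouse 2 and 3 for PCS mouse 3. The median gap, intensity ratio minus the authors' deposited fold, was -0.43, 0.27 and -1.55 in the 3 mice. How the authors scaled the intensities to obtain their folds is not given in the sources used here.

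Storage was examined by setting PCS mice against PC mice, given flour of conventional potatoes. In limma 0 features passed (0.0% called) and 38 had an unadjusted p under 0.05 (0.757%). Centred arrays likewise gave 0 in limma, and 24 features had an unadjusted p under 0.05 (0.478%). Without PCS array 3, a setting chosen after seeing the data, limma called 0 features as deposited and centred. At an unadjusted p under 0.05 there were then 117 as deposited and 263 centred. The median feature was then 0.64 higher (log2) as deposited. Leaving out PO array 2 as well gave 2 of 5021 features centred and 0 as deposited. With all arrays the median feature was 1.38 higher (log2) in PCS mice as deposited. All 43 named genes were above 0, as were 99.5% of all features, so centred values are needed to see single genes. With centred arrays 13 of the 20 listed genes were above 0, with a median of 0.31. Of all features 34.9% were above 0, with a median of -0.12. Card14 had intensities of 2537, 3876 and 554 in PCS mice against 347, 464 and 235 in PC mice, a difference of 2.39 (SE 1.23, limma adjusted p 0.57) as deposited and 0.89 centred. Cd2 had 2263, 4937 and 1002 in PCS mice against 539, 664 and 271 in PC mice, a difference of 2.28 (SE 1.21, limma adjusted p 0.57) as deposited and 0.78 centred. As deposited all PCS mice exceeded all PC mice for both genes, as in 19.4% of all features, but centred on the median PCS mouse 3 was below all of them. Card14 then stood at 4.83, 4.61 and 0.13 (log2 above the array median) in PCS mice against 2.95, 2.17 and 1.79 in PC mice. Cd2 stood at 4.67, 4.96 and 0.98 in PCS mice against 3.58, 2.69 and 1.99 in PC mice. Aebp2 and Noc4l differed by 0.14 (SE 1.20) and 0.16 (SE 1.17) as deposited. Centred, they differed by -1.36 (SE 1.80) and -1.35 (SE 1.77). Aebp2 had intensities of 13178, 20985 and 2378 in PCS mice against 9187, 5534 and 9684 in PC mice. Noc4l had 21286, 21262 and 3726 in PCS mice against 12373, 7338 and 13378 in PC mice. For both genes PCS mice 1 and 2 were above all PC mice and PCS mouse 3 was below them. How many of all features had this order was not counted.

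The stored flours of both cultivation systems were compared as PCS against POS mice. In limma 0 features passed (0.0% called) and 2 had an unadjusted p under 0.05 (0.0398%). Centred arrays likewise gave 0 in limma, and 15 features had an unadjusted p under 0.05 (0.299%). The median feature was 0.33 (log2, PCS minus POS) as deposited, and -0.45 without PCS array 3. Without that array, a setting chosen after seeing the data, limma called 0 features as deposited and centred. At an unadjusted p under 0.05 there were then 35 as deposited and 188 centred. Leaving out PO array 2 as well gave 1 of 5021 features centred and 0 as deposited. Uhrf1bp1 had intensities of 1289, 1083 and 147 in PCS mice against 118, 147 and 81 in POS mice, so that PCS mice 1 and 2 were above all POS mice and PCS mouse 3 equalled POS mouse 2. Its difference was 2.40 (log2, SE 1.24, limma adjusted p 1.00) as deposited and 1.95 centred. How many of all features had PCS mice 1 and 2 above all POS mice was not counted. Csf2 had 2062, 5350 and 457 in PCS mice against 905, 1552 and 662 in POS mice, with PCS mouse 3 below every POS mouse, and differed by 0.81. With centred arrays 16 of the 20 listed genes were above 0, with a median of 0.53, and 2 of the 23 other named genes. Of all features 34.1% were above 0, with a median of -0.12.

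Features without a gene name were also examined by their numbers. Feature 10110 had intensities of 3069, 989 and 5750 in PCS mice against 139, 269 and 584 in Ctr mice, so that all PCS mice were above all Ctr mice, and differed by 3.21 (log2, SE 1.16, limma adjusted p 1.00). Feature 7845 had 95, 234 and 8 in PCS mice against 6, 2 and 8 in Ctr mice, values near the dim end of the arrays. On the lower side, feature 20177 had 321, 159 and 4926 in PCS mice against 3942, 6349 and 2738 in Ctr mice, and feature 19948 had 6, 6 and 289 against 145, 337 and 112. Both were low in PCS mice 1 and 2 and not in PCS mouse 3. The limma p-values here rest on the spread within groups of 3 mice, pooled over all arrays of the series and not over PCS and Ctr alone. Precision is limited by the number of arrays.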

How the data were processed

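Arrays were read with Agilent Feature Extraction, per the submitters' processing notes. The deposited intensity values are whole, linear and, as far as the values show, unscaled between arrays. The signal column and background step are not stated. A second table from the authors gives log2 folds per mouse against the control mean, with gene names, per the file headers. Its 51 names all match the RefSeq gene table of GRCm38.p6. The build behind the files is not stated, so positions are left out.

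The 5021 features with no blank in any of 18 columns were used. Values were set to at least 1 and log2 transformed. Limma 3.58.1 in R 4.3.3 fitted 1 mean per group to all 18 arrays, eBayes without trend, with Benjamini-Hochberg adjustment over all 5021 at 0.05. Centring, arrays in the fit, scaling, floor, a dim-feature filter and left-out arrays were varied. The fold rule compares each mouse with the arithmetic Ctr mean. The fit was tried on simulated data of independent normal values and equal array brightness, for the size and sign of its differences. That trial does not cover arrays that differ in brightness or stand apart in profile. Python 3.11.15, numpy 2.4.6, pandas 2.3.3 and matplotlib 3.10.9 were used.

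Genes are named if the authors list them in PCS mice and no value is blank, plus up to 4 higher and 4 lower other named genes by smallest limma p, and at most 2 unnamed features per direction. Apoa1, H2-K2, Ufm1, Ank2, Gdf1, Pde4b, Thap1 and Bmf were named after their values were seen. Members, lists and comparisons were chosen with earlier results of these data known. Named genes with a blank were left out of all tests. They are Apom, Bop1, Katnal2, Neil3, Plscr1, S100a14, Shank3 and Trbv13-1.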

Additional observations from a re-analysis of the deposited data

Results flagged for a closer look

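The authors' deposited table lists Neil3, a DNA glycosylase of base excision repair, and Bop1, a factor of large ribosomal subunit assembly, in PCS mice, with mean log2 folds of 1.08 for Neil3 and 1.09 for Bop1. Both features have a blank cell in the column of PCS array 3, are among those whose columns may not hold the mice they name, and were in none of the comparisons, and these folds drew attention because they lie outside the tested intensities. The authors' deposited table gives Neil3 at 1.23, 0.97 and 1.06 and Bop1 at 1.13, 0.94 and 1.19 in PCS mice 1, 2 and 3.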

How the results depend on the processing

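The limma count for PCS against Ctr was 0 with centring on the median or the 75th percentile, quantile normalisation, a floor of 16, dim features left out, an intensity trend, and without PO array 2. It was also 0 with the replicate number as a replicate block, as deposited and centred, and the block gave 0 for PCS against PC and against POS too. Same-numbered PCS and Ctr arrays deviated from their group means with correlations of -0.27, 0.18 and -0.07. Other-numbered pairs had -0.30 to 0.35. For same-numbered PCS and PC arrays it was 0.25, 0.079 and 0.091, and for PCS and POS arrays 0.28, -0.23 and -0.36. Deviations from a mean of 3 arrays depend on each other, so these values cannot settle whether the numbers pair the mice. With only the arrays of the groups compared, 1 feature was called for PCS against Ctr, the named gene Plcb4 at 4.32 (log2), and 1 for PCS against PC, and 0 in each of these fits with centred arrays.

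Leaving out 1 PCS or Ctr array from the fit of all groups as deposited gave 0 features, and leaving out 1 array gave 0 for PCS against PC and POS. In fits chosen after seeing the data, leaving out PCS array 3 gave 1 feature with centred arrays, 445 centred without PO array 2 as well (15 named genes; 0 as deposited), and 1345 with only PCS and Ctr arrays (31 named genes) or 1112 when these were centred (29 named genes). With only PCS and Ctr arrays as deposited it was 5 features without PCS array 1 and 3 without Ctr array 3, with Plcb4 the 1 named gene in each. The cause was not tested.

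The median feature ranged between -0.92 and 0.41 with 1 array left out. The fold rule gave 53 features, 135 at a fold of 1.5 and 10 at a fold of 3. With 1 array left out it gave 43 to 1586 as deposited, the highest without PCS array 3, with 170 without Ctr array 3 and 153 without PCS array 1. Centred, it gave 31 to 953, with 92 without PCS array 1. Features whose groups did not overlap numbered 166 as deposited and 878 centred, 217 higher and 661 lower.

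Of 175 values of the 25 genes named by the rule, under 7 settings that kept every PCS and Ctr array, all 175 kept their sign. Much of this was fixed in advance. Fitting the PCS and Ctr arrays alone, the replicate block and leaving out PO array 2 cannot change the difference of a gene. The floor of 16 lay below every PCS and Ctr value of these genes, and centring moved every gene by the same amount. With arrays left out, 24 of 900 turned, in 3 genes. The 900 hold the same differences again in fits that vary only which other arrays set the spread, so they are not 900 separate checks. Crk ranged between -0.16, without PCS array 3, and 1.30. Prkar1a ranged between -0.90, without PCS array 3, and 0.99, with -0.25 without Ctr array 2, and centred it was -0.16 and -0.15 without these arrays. Ufc1 ranged between -3.03, without PCS array 3, and 0.11, without PCS array 2, with 0.033 without PCS array 1, and centred it was 0.017 without PCS array 2.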
